A study of Mus musculus with 6 samples.

Results

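Kinesins and dyneins are the motor proteins that walk along microtubules. Their genes were picked out of an RNA-seq comparison of WT and Fmr1-KO mouse cortical neurons by name: the numbered Kif genes, the Kifc genes, the kinesin light chains Klc1 to Klc4, the cytoplasmic dynein chains (Dync) and the dynein light chains (Dynll, Dynlrb and Dynlt). Of 55367 rows in the count table, 62 carried such a name and 59 had a mean of at least 10 raw counts. Those 59 were kept, and all of them were among the 16976 genes tested. The matching rows under the minimum were Kif12 with a mean of 4.33 counts, Kif28 with 1.00 and Kif2b with 0, and the lowest kept were Dynlt1c with 14.7 and the pseudogene Dynlt1-ps1 with 23.5. Of the kept genes, 58 were sorted by known function into 12 mitotic kinesins, 12 transport kinesins, 4 kinesin light chains, 14 chains of cytoplasmic dynein 1, 9 motors of cilia and 7 other kinesins, and Dynlt1-ps1 was left outside these classes.

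All cells were of C57BL/6J background and came from the cerebral cortex of pups at postnatal day 1. The 3 WT libraries were from unmodified mice and the 3 Fmr1-KO libraries from mice carrying a knockout of Fmr1, the X-linked gene for the RNA-binding protein FMRP that is missing in fragile X syndrome. In both groups the tissue was dissociated with papain and the cells were kept in culture for 2 days. Before plating, ACSA2-positive astrocytes and myelin had been removed with magnetic beads, according to the methods. The labels give no treatment for either group, and the number and sex of the pups behind each library are not given in the sources used here. The knockout is carried by all cells of the animal and not only by its neurons.

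Most kinesins move towards the plus ends of microtubules, which in an axon point away from the cell body, and carry vesicles, mitochondria and other organelles outward. Cytoplasmic dynein 1 is the main motor in the opposite direction, and brings endosomes and signalling cargo back to the cell body. A separate set of kinesins builds and positions the mitotic spindle or finishes cytokinesis, and is transcribed mainly in dividing cells late in the cell cycle, so a postmitotic neuron and a dividing progenitor use different parts of the family.

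Total counts ran from 30348556 to 35126207 per library. Fmr1 itself had 4113, 3710 and 3656 counts in WT replicates 1 to 3 and 1761, 1879 and 1972 in the Fmr1-KO libraries, with a log2 fold change of -0.98 (SE 0.04). Fold changes are given as Fmr1-KO relative to WT, CPM are counts scaled to library size with TMM factors. Calls rest on edgeR's quasi-likelihood test over all 16976 genes, with 0.05 as the limit for the adjusted p. Xist was at 306 ± 7.34 CPM in WT and 916 ± 96.4 CPM in Fmr1-KO (SD, n = 3), and the counts of 4 Y-linked genes summed to between 3678 and 3853 in WT and between 2876 and 3032 in Fmr1-KO, so the genotypes also differed in sex-linked RNA. Neither the labels nor the methods tie a library to a litter, and the p-values measure the spread between these libraries. In bulk RNA, fewer cells of a type and less RNA per cell cannot be told apart.

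Every one of the 12 mitotic kinesins rose in Fmr1-KO, 7 of 12 transport kinesins fell and none rose, and 7 of 14 dynein 1 chains fell and 1 rose. The classes were sorted with earlier results of these data known, and these counts depend on the sorting. Kif2a, a close relative of the mitotic Kif2c, was placed among the other kinesins and fell (-0.25, SE 0.03). The mitotic class was not recounted with Kif2a in it. The median log2 fold change was 0.71 for mitotic kinesins, -0.15 for transport kinesins and -0.10 for dynein 1, beside 0.01 over all genes tested. Among all 59 members, 21 were called lower and 20 higher, while of all genes tested 21.9% were called lower and 20.7% higher, so a call in one direction was common among genes of any kind. With a minimum fold change of 1.2 built into the test, 17 members were called higher and 5 lower, against 5.20% and 7.89% of all genes. All 12 mitotic kinesins were among those 17, whereas Kif5a was the only transport kinesin left among those 5, the others being Dync1i1, Dynll2, Kif19a and Kifc2.

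**Figure D1:**
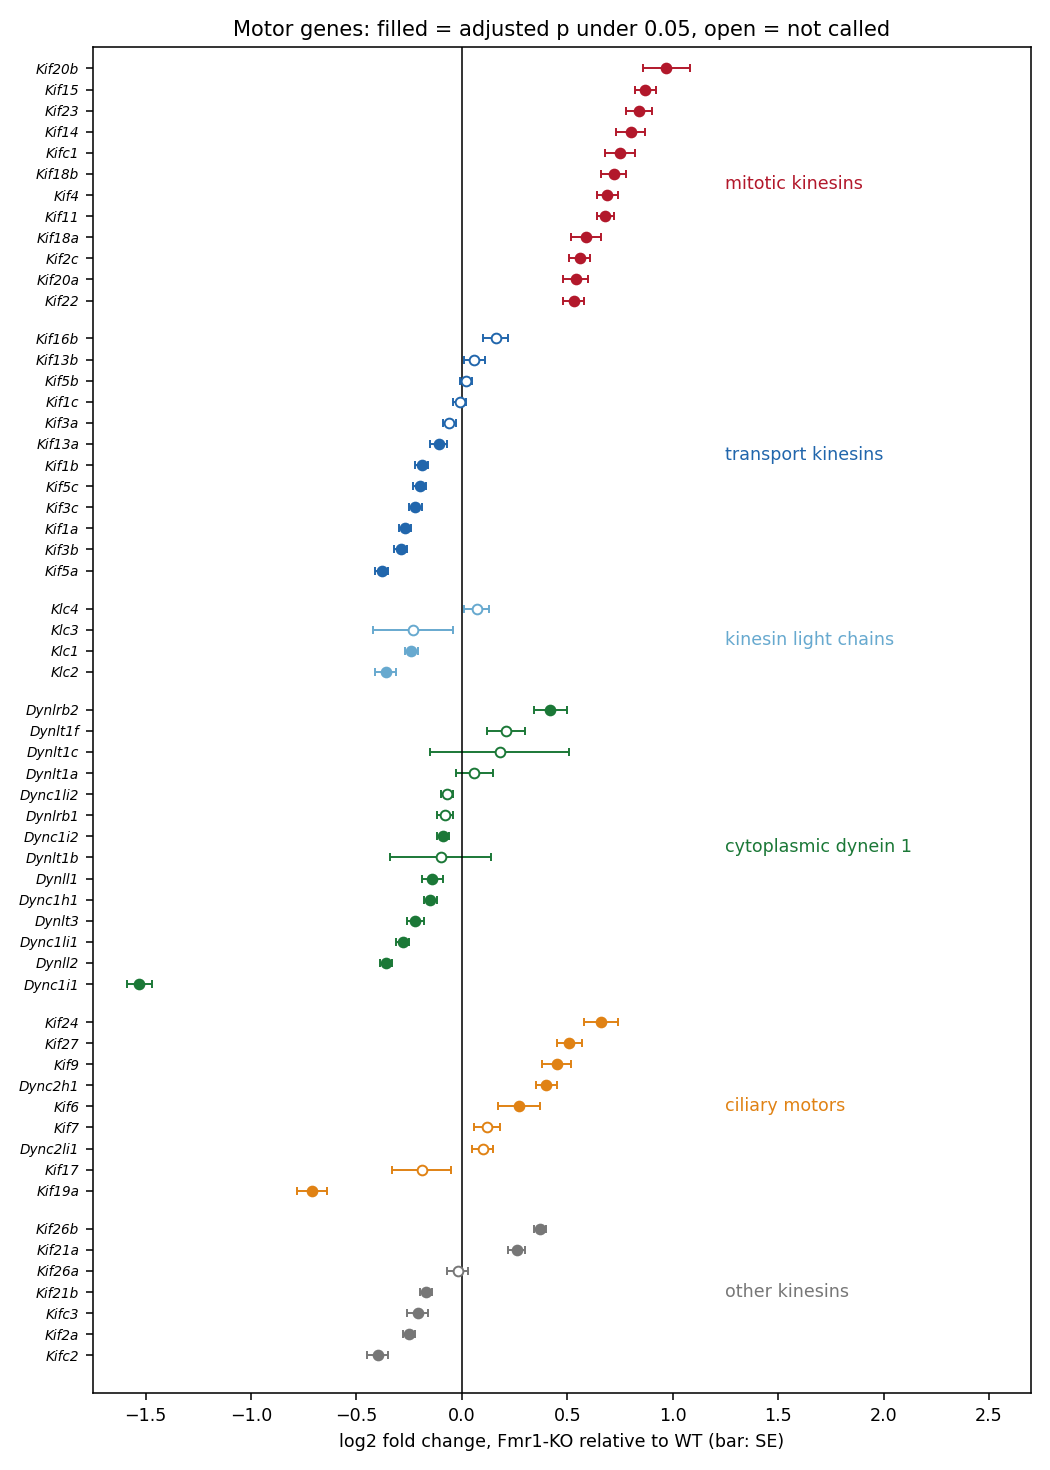
The log2 fold change (Fmr1-KO relative to WT) of the 58 classified motor genes is plotted on the x axis with its SE as a bar, grouped by class on the y axis; filled points were called by edgeR and open points were not. All 12 mitotic kinesins lie between 0.53 and 0.97, the transport kinesins between -0.38 and 0.16, and Dync1i1 stands at -1.53.

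The summed level of the mitotic kinesins was 259.5, 259 and 246 CPM in WT replicates 1 to 3 and 409, 413 and 411 CPM in Fmr1-KO, 1.61 times the WT mean. The transport kinesins summed to 3881, 3829 and 3852 CPM in WT and 3296, 3421 and 3349 CPM in Fmr1-KO, which was 0.871 of the WT mean. Dynein 1 chains summed to 2551, 2531 and 2518 CPM in WT and 2216, 2214 and 2229 CPM in Fmr1-KO, which was 0.876 of it. The genotypes did not overlap in any of these 3 sums. For every 100 CPM of transport kinesin there were 6.38 to 6.76 CPM of mitotic kinesin in the WT libraries and 12.1 to 12.4 CPM in the Fmr1-KO libraries. The ratio of transport kinesin to dynein 1 RNA was 1.51 to 1.53 in WT and 1.49 to 1.55 in Fmr1-KO, and these ranges overlapped.

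**Figure D2:**
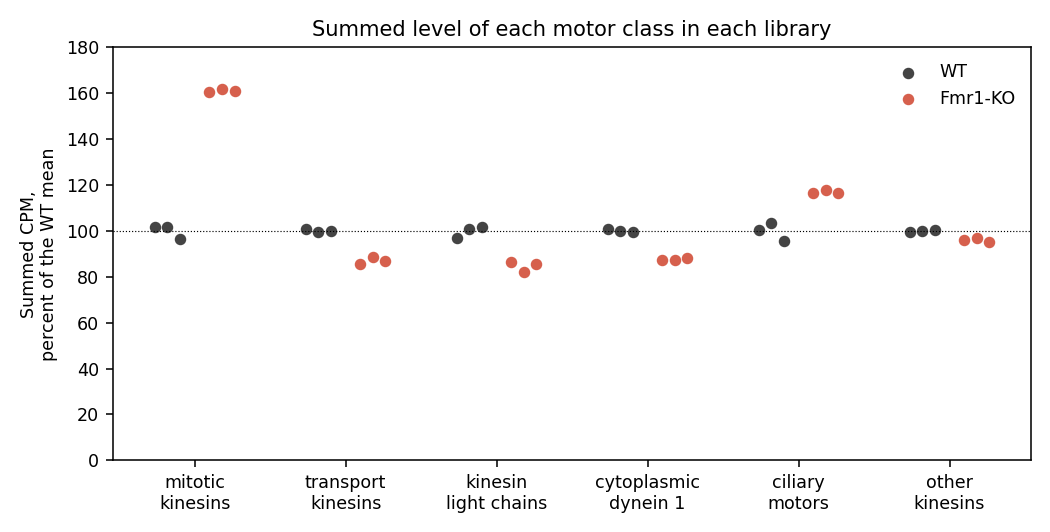
The summed CPM of each motor class in each of the 6 libraries is drawn on the y axis as a percentage of that class's WT mean, with the classes on the x axis, points for single libraries and a dotted line at the WT mean. Mitotic kinesins in Fmr1-KO stand at 1.61 times the WT mean, and transport kinesins and dynein 1 stand at 0.871 and 0.876 of it.

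The spindle-building kinesins were examined first. Kif11, the kinesin-5 that slides antiparallel microtubules apart to separate the spindle poles, was the most abundant mitotic kinesin per kb of exon in WT. Its counts were 2005, 1855 and 1790 in WT replicates 1 to 3 and 2824, 2817 and 3131 in Fmr1-KO. Every Fmr1-KO library lay above every WT library, and the gene rose by 0.68 on the log2 scale (SE 0.04, adjusted p = 1.03e-11 by edgeR). Kif15, the kinesin-12 that helps Kif11 to keep the spindle bipolar, had 698, 606 and 624 counts in WT and 1102, 1110 and 1189 in Fmr1-KO. Its level went from 19.0 ± 0.924 to 34.8 ± 1.29 CPM (SD, n = 3), a log2 fold change of 0.87 (SE 0.05). Kifc1, a kinesin-14 that walks the other way and gathers microtubules at the poles, had 454, 386 and 458 counts in WT and 714, 630 and 771 in Fmr1-KO. These groups were also apart, with a log2 fold change of 0.75 (SE 0.07). Kif18b, a kinesin-8 that shortens astral microtubules, had 628, 612 and 565 counts in WT and 952, 861 and 1077 in Fmr1-KO, and a log2 fold change of 0.72 (SE 0.06). Kif18a, its relative that damps the movement of chromosomes at metaphase, rose by 0.59 (SE 0.07) on the log2 scale, to 150.1% of its WT mean.

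The kinesins of cytokinesis included Kif20b, which had the largest increase among the 59 motor genes. It acts in the last steps of cell separation and had 285, 363 and 258 counts in WT and 526, 629 and 560 in Fmr1-KO. Its replicates were more spread than those of the other mitotic kinesins but the genotypes did not overlap, and it rose by 0.97 on the log2 scale (SE 0.11, adjusted p = 2.78e-07 by edgeR). Kif23, a subunit of the centralspindlin complex that bundles the central spindle, had 768, 764 and 643 counts in WT and 1227, 1234 and 1290 in Fmr1-KO, a log2 fold change of 0.84 (SE 0.06). Kif14, which works with citron kinase in the cleavage furrow, had 354, 331 and 315 counts in WT and 551, 542 and 592 in Fmr1-KO, and a log2 fold change of 0.80 (SE 0.07). Kif20a, which brings Aurora B to the central spindle, rose less, with a log2 fold change of 0.54 (SE 0.06) and 145% of its WT mean.

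The kinesins that act on chromosomes also rose. Kif4, a chromokinesin that sets the length of the central spindle with Prc1, had a log2 fold change of 0.69 (SE 0.05) and rose from 24.1 ± 1.07 to 38.8 ± 1.05 CPM (SD, n = 3). Kif4 is X-linked, and the part of the Xist and Y-linked differences in its change was not tested. Kif22, a chromokinesin that pushes chromosome arms towards the equator, and Kif2c, which takes microtubules apart at kinetochores, had log2 fold changes of 0.53 (SE 0.05) and 0.56 (SE 0.05). Across the 12 genes the spread of the fold changes was narrow, from 0.53 for Kif22 to 0.97 for Kif20b, and in every one of them the lowest Fmr1-KO library was above the highest WT library. Of all genes tested, 25.4% had no overlap between genotypes with Fmr1-KO higher and 26.3% with Fmr1-KO lower, so a gene without overlap was common in either direction.

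**Figure D3:**
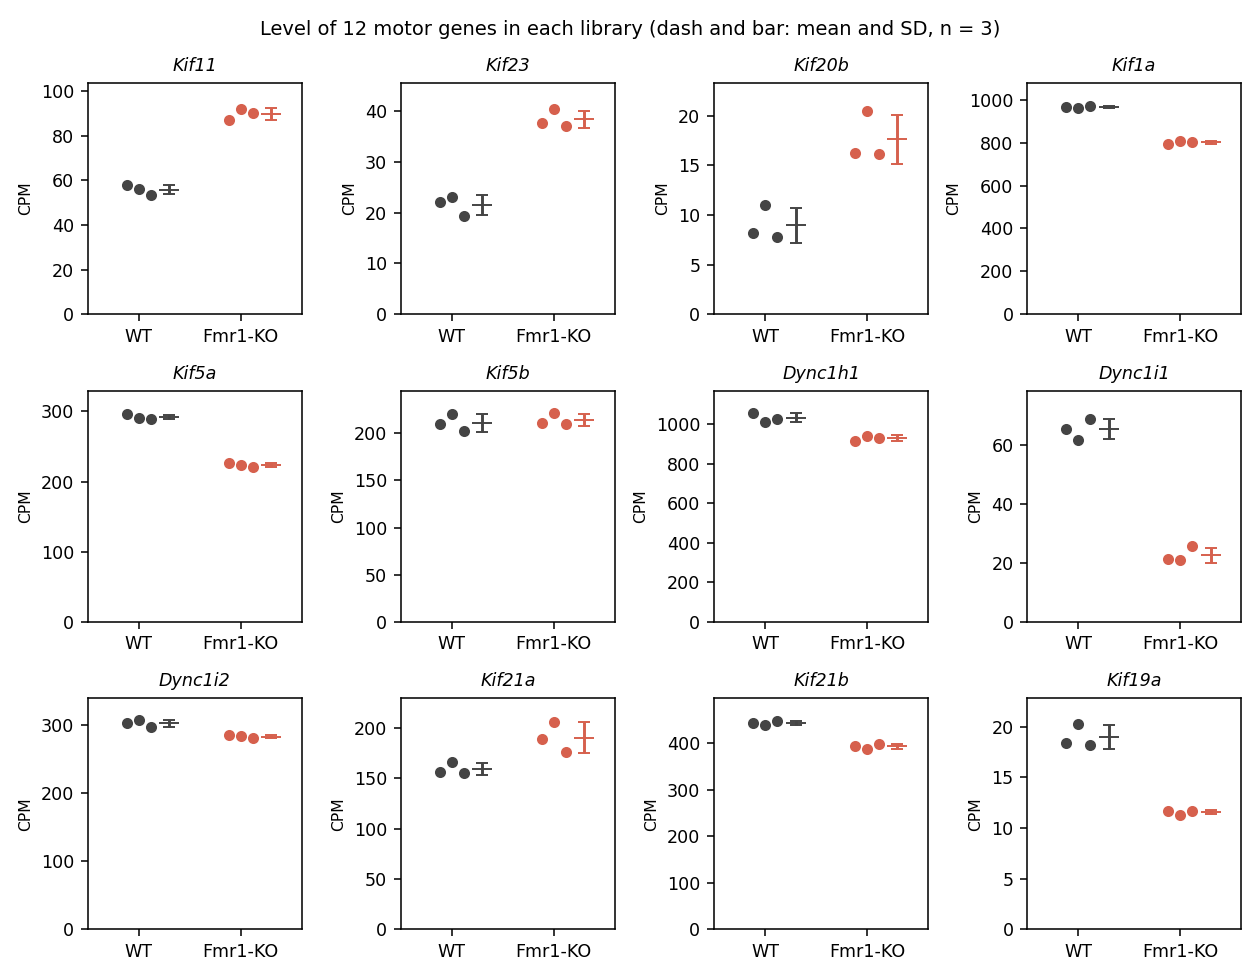
CPM of selected motor genes is plotted on the y axis of each panel, which starts at 0, with 1 point per library, WT on the left and Fmr1-KO on the right, and the mean with its SD beside the points. Kif11 and Kif23 are higher in all 3 Fmr1-KO libraries, Dync1i1 is lower in all 3, and Kif5b overlaps between genotypes.

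The promoters of the mitotic kinesins shared short sequence elements that the name rule did not use. Late cell cycle promoters are known to carry a CHR element (TTTGAA, or TTCAAA read on the other strand), which is bound by the DREAM and MuvB complexes, and often a CCAAT box (CCAAT, or ATTGG on the other strand), bound by NF-Y. RefSeq promoter windows on GRCm38.p6, from 250 bases before to 50 bases after an annotated start, were matched to 44 of the 59 members and gave 50 windows, because some genes have more than 1 start. The CHR letters stood in 10 of 11 mitotic kinesin windows (90.9%), in 1 of 11 transport kinesin windows, in 0 of 12 dynein 1 windows and in 17.9% of all 32851 windows. Within 50 bases of the start they stood in 8 of the 11 mitotic windows (72.7%) and in 4.94% of all windows. The CCAAT letters stood in 7 of 11 mitotic windows (63.6%) and in 37.4% of all windows, and both elements together in 7 of 11 and in 6.95%. CCAAT letters also stood in 4 of 11 transport, 3 of 12 dynein 1, 4 of 8 ciliary and 2 of 3 light chain windows. Both elements together also stood in a window of Kif26b and of Kif27, which are not mitotic kinesins. The motifs can share an end letter, which no matches did in the stretches printed next, and a match describes the letters of the window and not a bound site. The mitotic window with neither motif was that of Kif18a, and no window was matched for Kif20a.

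The stretches run from 100 bases before the start to 25 bases into the transcript, 5′ to 3′ on the gene's strand, with CHR and CCAAT matches in capitals. They show 6 mitotic kinesins with both elements in the stretch, and Kif5c and Dync1i1, a transport kinesin and a dynein chain that fell, for contrast. These are examples, and other genes that fell did hold matches, such as the CCAAT letters of Kif3b. Kif11 is at chr19:37376282-37376406 on the plus strand, Kif23 at chr9:61946775-61946899 on the minus strand and Kifc1 at chr17:33890609-33890733 on the minus strand. Kif18b is at chr11:102925100-102925224 on the minus strand, Kif22 at chr7:127042396-127042520 on the minus strand and Kif4 at chrX:100625965-100626089 on the plus strand. Kif5c is at chr2:49619186-49619310 on the plus strand and Dync1i1 at chr6:5725539-5725663 on the plus strand.
Kif11: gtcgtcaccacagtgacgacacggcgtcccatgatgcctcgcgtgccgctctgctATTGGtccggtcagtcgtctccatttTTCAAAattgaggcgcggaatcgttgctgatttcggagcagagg
Kif23: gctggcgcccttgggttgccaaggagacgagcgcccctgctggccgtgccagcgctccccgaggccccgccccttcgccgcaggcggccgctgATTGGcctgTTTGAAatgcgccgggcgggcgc
Kifc1: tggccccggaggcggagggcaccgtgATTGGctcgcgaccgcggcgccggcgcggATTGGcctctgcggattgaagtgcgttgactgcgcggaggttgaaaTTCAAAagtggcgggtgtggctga
Kif18b: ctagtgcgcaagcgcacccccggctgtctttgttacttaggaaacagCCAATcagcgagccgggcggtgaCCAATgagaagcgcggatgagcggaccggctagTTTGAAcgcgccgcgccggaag
Kif22: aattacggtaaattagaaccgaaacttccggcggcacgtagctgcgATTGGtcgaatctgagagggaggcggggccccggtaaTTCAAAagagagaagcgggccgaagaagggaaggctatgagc
Kif4: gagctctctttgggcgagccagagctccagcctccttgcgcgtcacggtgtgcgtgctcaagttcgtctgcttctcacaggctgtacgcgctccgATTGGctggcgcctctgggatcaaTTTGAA
Kif5c: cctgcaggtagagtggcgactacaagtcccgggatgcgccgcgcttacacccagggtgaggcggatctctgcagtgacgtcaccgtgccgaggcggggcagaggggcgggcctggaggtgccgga
Dync1i1: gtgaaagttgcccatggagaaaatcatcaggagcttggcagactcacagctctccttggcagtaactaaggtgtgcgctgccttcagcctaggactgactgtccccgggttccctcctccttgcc
In these mitotic promoters a CCAAT box lay upstream of the CHR in each case, and the first base of the CHR was between position -19 (Kif11) and position 20 (Kif4) counted with the start base as 1 and the base before it as -1. For Kif11, Kif23 and Kif5c the bases just past this start were not found in a GENCODE M21 transcript of the gene. The stretches of Kif5c and Dync1i1 held neither set of letters, which says only that these letters are not in these windows.

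Most axonal transport kinesins were more abundant than the mitotic ones. In WT, the mitotic kinesins ran from 0.954 (Kif14) to 7.48 (Kif11) CPM per kb of exon, and the transport kinesins from 1.64 (Kif16b) to 104 (Kif1a) CPM per kb. Kif16b and Kif13b (2.98 CPM per kb) lay within the mitotic range, Kif13a (9.43) just above it, and the others from 19.8 (Kif1c) upward. The changes of the transport kinesins were small, between -0.38 and 0.16 on the log2 scale.

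**Figure D4:**
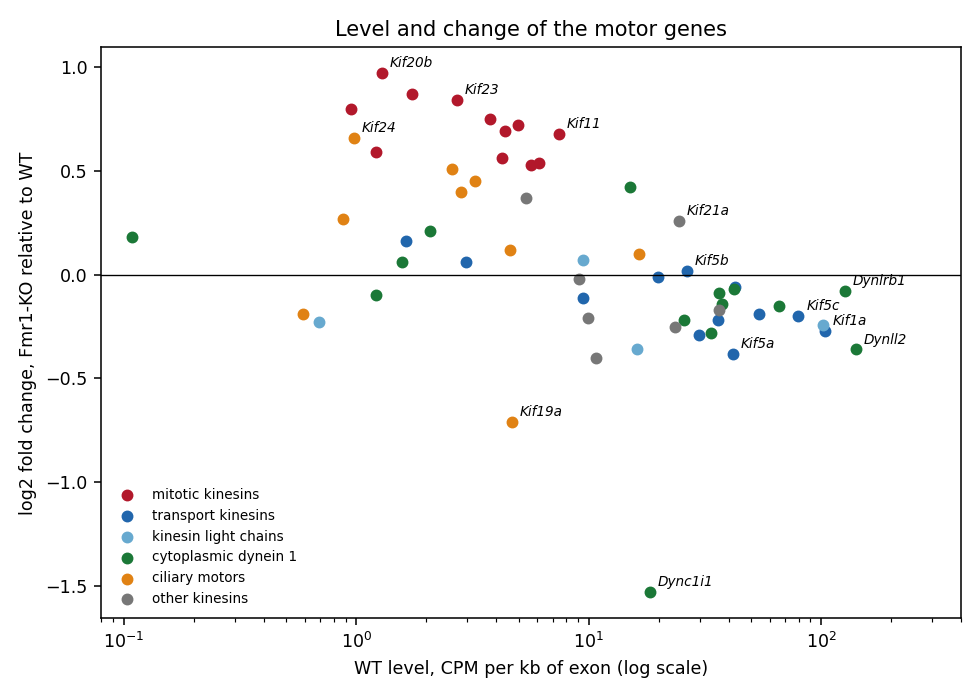
Each of the 58 classified motor genes is placed by its mean WT level in CPM per kb of exon (x axis, log scale) and its log2 fold change in Fmr1-KO relative to WT (y axis), coloured by class. The mitotic kinesins lie at 7.48 CPM per kb or less and above 0.5. Of the abundant motors, Kif1a, Klc1, Kif5c and Dynll2 lie between -0.36 and -0.20. Dync1h1 lies at -0.15, and Dynlrb1, at 127 CPM per kb in WT, lies at -0.08 and was not called.

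Kinesin-1, the founding member of the family, is a tetramer of 2 heavy chains (Kif5a, Kif5b or Kif5c) and 2 light chains, and 2 of its 3 heavy chains fell. Kif5a, a heavy chain made mainly in neurons, had 10278, 9615 and 9662 counts in WT and 7349, 6863 and 7699 in Fmr1-KO. Every Fmr1-KO library lay below every WT library, and the gene fell from 292 ± 3.26 to 224 ± 2.38 CPM (SD, n = 3), a log2 fold change of -0.38 (SE 0.03, adjusted p = 6.41e-10 by edgeR). Kif5c, also enriched in neurons and the most abundant of the heavy chains, had 19696, 19017 and 18997 counts in WT and 15550, 15500 and 17567 in Fmr1-KO, and fell by 0.20 on the log2 scale (SE 0.03). Kif5b, the heavy chain of all tissues, had 7311, 7306 and 6740 counts in WT and 6862, 6783 and 7311 in Fmr1-KO. Its CPM overlapped between genotypes and it was not called (0.02, SE 0.03, adjusted p = 0.666 by edgeR). Per kb of exon, the ratio of Kif5b to Kif5a was 0.623, 0.666 and 0.611 in the WT libraries and 0.818, 0.866 and 0.832 in the Fmr1-KO libraries, without overlap. The pair was chosen after its values had been seen. The light chain Klc1, which links the motor to its cargo in neurons, had 14121, 13782 and 14248 counts in WT and 11595, 10468 and 12569 in Fmr1-KO, a log2 fold change of -0.24 (SE 0.03). Klc2 fell by 0.36 on the log2 scale (SE 0.05) with 2189, 2320 and 2242 counts in WT and 1796, 1546 and 1769 in Fmr1-KO. Neither pair of groups overlapped, and the scarcer Klc3 (-0.23, SE 0.19) and Klc4 (0.07, SE 0.06) were not called.

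Kinesin-2 is built from Kif3a with either Kif3b or Kif3c and serves axons as well as cilia. Kif3a, the shared subunit, had 5287, 5156 and 5099 counts in WT and 4653, 4632 and 5133 in Fmr1-KO, and was not called (-0.06, SE 0.03, adjusted p = 0.137 by edgeR). Its partners both fell. Kif3b had 5858, 5543 and 5660 counts in WT and 4454, 4166 and 4854 in Fmr1-KO, a log2 fold change of -0.29 (SE 0.03), and Kif3c, the neuronal partner, had 9331, 8721 and 9007 counts in WT and 7482, 6850 and 8149 in Fmr1-KO, a log2 fold change of -0.22 (SE 0.03). In CPM, the WT and Fmr1-KO libraries were apart in all of Kif3a, Kif3b and Kif3c. Whether the change of Kif3a differed from those of Kif3b and Kif3c was not tested.

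Among the kinesin-3 motors, Kif1a, the carrier of synaptic vesicle precursors and dense-core vesicles, had 33662, 31800 and 32414 counts in WT and 25740, 24766 and 27936 in Fmr1-KO. It fell from 967 ± 4.87 to 801 ± 8.85 CPM (SD, n = 3), a log2 fold change of -0.27 (SE 0.03, adjusted p = 4.03e-08 by edgeR) with no overlap. Kif1b, whose isoforms carry mitochondria or synaptic vesicle precursors, had 33841, 30619 and 31626 counts in WT and 26261, 26630 and 28714 in Fmr1-KO, and fell by 0.19 on the log2 scale (SE 0.03). Counts summed per gene do not separate those isoforms. Kif13a, a motor of endosomal vesicles, had 2701, 2400 and 2623 counts in WT and 2390, 2211 and 2338 in Fmr1-KO. Its CPM overlapped between genotypes, and its call (-0.11, SE 0.04, adjusted p = 0.0476 by edgeR) was lost with DESeq2 (adjusted p = 0.0807), among other alternatives. Kif13b, with 1342, 1275 and 1305 counts in WT and 1263, 1319 and 1373 in Fmr1-KO, was not called (0.06, SE 0.05). Kif1c (-0.01, SE 0.03) and the early endosome motor Kif16b (0.16, SE 0.06, adjusted p = 0.0505 by edgeR) were not called either, and Kif16b was called higher with library totals alone (adjusted p = 0.022).

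Cytoplasmic dynein 1 is assembled on a dimer of the heavy chain Dync1h1, which holds the motor domain, with intermediate chains that bind dynactin, light intermediate chains that bind cargo adaptors, and 3 families of light chains. Its largest change was in an intermediate chain. Dync1i1, the intermediate chain made mainly in neurons, had 2280, 2042 and 2297 counts in WT and 688, 645 and 891 in Fmr1-KO. The highest Fmr1-KO library was far below the lowest WT library. The gene, on the plus strand of chromosome 6, fell from 65.4 ± 3.54 to 22.6 ± 2.60 CPM (SD, n = 3), to 34.7% of the WT mean, with a log2 fold change of -1.53 (SE 0.06, adjusted p = 4.42e-14 by edgeR). This was the largest change in either direction among the 59 motor genes, and it stayed between -1.63 and -1.48 when any single library was left out. Dync1i2, the intermediate chain found in all cells, had 10496, 10144 and 9897 counts in WT and 9263, 8658 and 9759 in Fmr1-KO, and fell by 0.09 on the log2 scale (SE 0.03, adjusted p = 0.0111 by edgeR). That small change was lost with library totals alone (adjusted p = 0.067). Per kb of exon, Dync1i1 made up 33.5%, 31.8% and 35.0% of the intermediate chain RNA in the WT libraries and 14.7%, 14.7% and 17.5% in the Fmr1-KO libraries, so the shares did not overlap. This pair was also chosen after its values had been seen.

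The other core chains of dynein had smaller changes. Dync1h1 had 36722, 33484 and 34354 counts in WT and 29679, 28837 and 32390 in Fmr1-KO, and went from 1033 ± 22.1 to 929 ± 14.8 CPM (SD, n = 3), a log2 fold change of -0.15 (SE 0.03). The light intermediate chain Dync1li1 had 4542, 4170 and 4492 counts in WT and 3444, 3261 and 3842 in Fmr1-KO, and fell by 0.28 on the log2 scale (SE 0.03). Both changes kept the genotypes apart. The second light intermediate chain, Dync1li2, was not called (-0.07, SE 0.03, adjusted p = 0.0526 by edgeR), and was called lower with DESeq2 (adjusted p = 0.048).

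The light chains were divided. Dynll2, an LC8 chain that is also shared with myosin V and the most abundant motor gene per kb of exon (141 CPM per kb in WT), had 13301, 13216 and 12600 counts in WT and 9935, 8838 and 10746 in Fmr1-KO. Its groups did not overlap, and it fell by 0.36 on the log2 scale (SE 0.03, adjusted p = 1.06e-08 by edgeR). Dynll1, the other LC8 chain, had 4827, 5319 and 4543 counts in WT and 4439, 3850 and 4586 in Fmr1-KO. These overlapped in CPM, and the call (-0.14, SE 0.05, adjusted p = 0.0196 by edgeR) was lost with DESeq2 (adjusted p = 0.185), without WT replicate 2 (-0.0666, adjusted p = 0.18) and without Fmr1-KO replicate 2 (-0.115, adjusted p = 0.0894). Dynlt3, a Tctex chain encoded on the X chromosome, had 2319, 2219 and 2162 counts in WT and 1879, 1733 and 1939 in Fmr1-KO, a log2 fold change of -0.22 (SE 0.04). The part of the Xist and Y-linked differences in its change was not tested. Dynlrb2, a roadblock chain, was the one dynein 1 chain that rose, with 282, 265 and 297 counts in WT, 374, 317 and 403 in Fmr1-KO and a log2 fold change of 0.42 (SE 0.08, adjusted p = 0.000222 by edgeR). Dynlrb1, its far more abundant relative, was not called (-0.08, SE 0.04). Dynlt1a, Dynlt1b, Dynlt1c and Dynlt1f are near-identical copies among which reads could be split, so their values are uncertain, and none was called.

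Motors of cilia took both directions, with 5 of 9 called higher and 1 lower, beside 20.7% and 21.9% of all genes. Kif24, which restrains cilium assembly at the mother centriole, had 277, 258 and 258 counts in WT and 427, 384 and 397 in Fmr1-KO, a log2 fold change of 0.66 (SE 0.08). Kif27, a relative of the Hedgehog pathway kinesin Kif7 that serves motile cilia, had 470, 475 and 420 counts in WT and 634, 580 and 668 in Fmr1-KO, a log2 fold change of 0.51 (SE 0.06). Neither gene overlapped between genotypes. Kif9, a kinesin of motile cilia, rose by 0.45 on the log2 scale (SE 0.07), with 521, 453 and 443 counts in WT and 645, 556 and 670 in Fmr1-KO. Dync2h1, the heavy chain of the dynein that returns cargo from the ciliary tip, rose by 0.40 (SE 0.05), with 1596, 1674 and 1399 counts in WT and 1889, 1977 and 2088 in Fmr1-KO. Kif6 had 195, 166 and 172 counts in WT and 193, 193 and 235 in Fmr1-KO, and its call (0.27, SE 0.10, adjusted p = 0.0328 by edgeR) was lost with DESeq2 (adjusted p = 0.132). Against these, Kif19a, a kinesin that trims the length of motile cilia, had 638, 672 and 608 counts in WT and 382, 346 and 408 in Fmr1-KO. It fell from 19.0 ± 1.18 to 11.6 ± 0.251 CPM (SD, n = 3), a log2 fold change of -0.71 (SE 0.07, adjusted p = 2.39e-08 by edgeR) without overlap. Of 8 genes of ciliated ependymal cells, 5 were higher, led by Foxj1 (0.55), Ccdc39 (0.42) and Ccdc40 (0.40), and Tmem212 (-0.49) was lower. Their summed level was 241 to 250 CPM in WT and 317 to 331 CPM in Fmr1-KO, and their part in the changes of the ciliary motors was not tested.

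Of the other kinesins, the kinesin-4 pair Kif21a and Kif21b, which slow the growth of microtubule ends, moved in opposite directions. Kif21a had 5410, 5491 and 5176 counts in WT and 6146, 6294 and 6137 in Fmr1-KO, a log2 fold change of 0.26 (SE 0.04), and Kif21b had 15424, 14471 and 14935 counts in WT and 12791, 11884 and 13893 in Fmr1-KO, a log2 fold change of -0.17 (SE 0.03). Per kb of exon, Kif21a was 39.5% to 41.7% of the pair in WT and 45.4% to 49.9% in Fmr1-KO. Kif26b had 2804, 2600 and 2561 counts in WT and 3254, 3143 and 3567 in Fmr1-KO and rose by 0.37 on the log2 scale (SE 0.03), while its relative Kif26a had 2077, 2098 and 2187 counts in WT and 2165, 1816 and 2073 in Fmr1-KO and was not called (-0.02, SE 0.05). The ratio of the first gene to the second was compared in these pairs, in Dync1i1 with Dync1i2 and in Kif5b with Kif5a. In all 4 pairs the ratio did not overlap between genotypes. The 2-sided exact permutation test gave p = 0.1 before and after adjustment over the 4 pairs, the smallest value that 3 against 3 libraries allow. The pairs were chosen after their values had been seen, so neither the lack of overlap nor this p-value tests them.

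Kif2a, which takes microtubules apart and limits the growth of axon branches, had 5298, 4947 and 4969 counts in WT and 4086, 3843 and 4409 in Fmr1-KO, a log2 fold change of -0.25 (SE 0.03). Its close relative Kif2c had risen, so these depolymerising kinesins changed in opposite directions. Kifc2, a minus-end motor of neurons, had 1414, 1445 and 1441 counts in WT and 1019, 1071 and 1056 in Fmr1-KO, a log2 fold change of -0.40 (SE 0.05). Kifc3, a minus-end motor known from epithelial junctions, had 1794, 1670 and 1838 counts in WT and 1470, 1307 and 1671 in Fmr1-KO, a log2 fold change of -0.21 (SE 0.05). In all of Kif2a, Kifc2 and Kifc3 the genotypes were apart.

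The study asked whether targets of nonsense-mediated mRNA decay were lower without FMRP, and 7 motor genes are on its list of such targets: Kif26a, Kif5a, Dynll2, Kif3b, Kif1b, Kif13a and Kif13b. The list was made in a neuroblastoma line, and the paper cautions that it would miss targets found only in these cultures. The paper also judged decay by phosphorylated UPF1 and by mRNA set against its pre-mRNA, which gene counts do not measure. Of these, 5 were called lower and none higher, with a median log2 fold change of -0.19, beside 21 of all 59 motors and 21.9% of all genes called lower. One of the 5 was Kif13a, whose call was lost with DESeq2, with the replicate block and on leaving out WT replicate 1, WT replicate 3 or the third Fmr1-KO library. Kif13b and Kif26a were not called.

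Genes that work with the motors were counted in the same fit, in which 21.9% of all genes were called lower and 20.7% higher. Of 22 mitotic spindle partners, all 22 were called higher, with a median log2 fold change of 0.65. They included the kinetochore motor Cenpe (1.08, SE 0.13), named outside the Kif series, the kinetochore protein Cenpf (1.03, SE 0.11) and Ndc80 (0.77, SE 0.07), which anchors microtubules at kinetochores. Of 20 kinesin adaptors, 16 were called lower and 0 higher, with a median of -0.20. With a minimum fold change of 1.2, 7.89% of all genes were called lower and 5.20% higher. All 22 spindle partners were still called higher at that minimum, and of the 20 adaptors 5 were lower and 0 higher. The largest decreases were in Sybu, which tethers axonal cargo to kinesin-1 (-0.76, SE 0.03), and in the liprins Ppfia4 (-0.75, SE 0.07) and Ppfia3 (-0.50, SE 0.04), scaffolds that bind Kif1a. Of 12 subunits of dynactin and regulators of dynein, 7 were called lower and 1 higher, with a median of -0.10. With the same minimum, 0 of the 12 were called in either direction. Pafah1b1, which encodes Lis1, fell by 0.22 on the log2 scale (SE 0.03), the dynactin subunit Dctn1 by 0.21 (SE 0.03) and Actr1b by 0.12 (SE 0.03), while the Lis1 partner Nde1 rose by 0.24 (SE 0.04). Of 11 tested dynein cargo adaptors, 0 were lower and 2 higher: Spdl1, which recruits dynein to kinetochores (0.57, SE 0.11), and the centrosomal protein Ninl (0.26, SE 0.06). The mitotic spindle partners held the CHR letters in 15 of 21 promoter windows (71.4%), and the kinesin adaptors in 1 of 24.

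Markers of the cell types in the cultures moved with these classes, where 21.9% of all genes were called lower and 20.7% higher. All 9 markers of proliferating cells were called higher, and their summed level was 693 to 727 CPM in WT and 1164 to 1217 CPM in Fmr1-KO, with Mki67 at 1.09, Top2a at 0.86 and Rrm2 at 0.81 on the log2 scale. Of 10 markers of neural progenitors, 6 were higher and 0 lower, and they summed to 2423 to 2442 CPM in WT and 2748 to 2828 CPM in Fmr1-KO. Eomes (2.79) and Neurog2 (2.34), factors of intermediate progenitors, moved most, followed by Pax6 (0.52). Of 12 neuronal markers, 11 were lower and 1 higher, and they summed to 5166 to 5274 CPM in WT and 4222 to 4424 CPM in Fmr1-KO. The largest decreases were in Nefl (-1.90), Nefm (-1.35) and Gap43 (-0.97), and the exception was Dcx (0.08), a gene of young neurons. The part of these markers in the changes of the mitotic and transport motors was not tested.

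Markers of non-neuronal cells were also present, and their calls stand beside the same 21.9% of all genes lower and 20.7% higher. The 9 astrocyte markers summed to 5741 to 5856 CPM in WT and 5093 to 5494 CPM in Fmr1-KO, with 5 lower, led by S100b (-0.94), Aqp4 (-0.72) and Gfap (-0.21), and Gja1 (0.30) and Aldoc (0.13) higher. All 9 markers of the oligodendrocyte lineage were lower, led by Mog (-1.23), Mbp (-0.92) and Cnp (-0.76), with sums of 2295 to 2494 CPM in WT and 1319 to 1420.4 CPM in Fmr1-KO. Of 9 microglial markers 8 were lower, led by C1qb (-1.13), C1qc (-1.08) and Aif1 (-1.07), with sums of 216 to 237 CPM in WT and 120.4 to 136 CPM in Fmr1-KO. Of 7 tested endothelial and mural markers, Rgs5 (-0.91) and Cdh5 (-0.66) were lower and Pecam1 was not called. The other 4 were higher, led by Kdr (1.23), Acta2 (0.87) and Pdgfrb (0.47). This list summed to 247 to 271 CPM in WT and 411 to 429.8 CPM in Fmr1-KO. Most of that difference was in Acta2, with means of 176 CPM in WT and 322 CPM in Fmr1-KO. In none of these lists was a marker at 0 in all libraries.

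**Figure D5:**
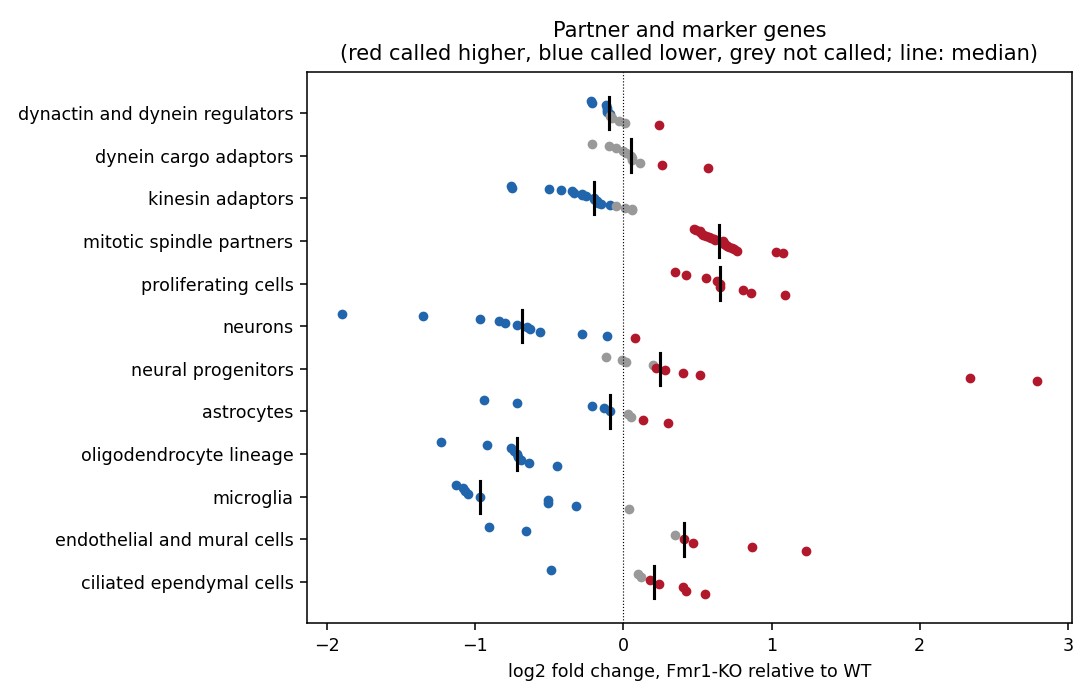
The log2 fold change (Fmr1-KO relative to WT) of each tested gene is plotted on the x axis for 4 lists of motor partners and 8 lists of cell type markers on the y axis, coloured by its call, with a black line at each list's median. All 22 spindle partners and all 9 markers of proliferating cells lie on the higher side, and the kinesin adaptors lie mostly below 0 with a median of -0.20.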

How the data were processed

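RNA was measured in 3 WT and 3 Fmr1-KO libraries of polyA RNA, with genotype read from the labels. The values the authors deposited are raw counts for each gene name, with no normalization. The submitters' processing notes name STAR 2.7.6a, GRCm38.p6 and featureCounts (Subread 2.0.1). The methods name a different Subread release and an earlier STAR release as an alternative, and reverse-stranded counting. Strand-aware counting separates antisense neighbours but not near-identical copies or isoforms. Totals of 30348556 to 35126207 counts gave similar depth.

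The count table of 55367 rows was fitted whole with edgeR 4.0.16 (R 4.3.3): filterByExpr, TMM, glmQLFit and glmQLFTest, 2-sided, genotype only, Benjamini-Hochberg adjustment over 16976 genes. SE is the log2 fold change divided by the square root of F. Medians and sums of classes carry no test. Exon lengths came from GENCODE M21 (98.6% of tested names found), and promoter windows from RefSeq tables for GRCm38.p6. The promoters of Kif20a, Kif13b, Kif5a, Kif5b, Klc2, Dync1li2, Dynll2, Dynlt1a, Dynlt1b, Dync2li1, Kif19a, Kif21b, Kifc2, Kifc3 and Dynlt1-ps1 were not analysed here.

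Members, classes and lists were chosen with earlier results of these data known. Counts per library are given for up to 6 called members of each class with the largest change, for a set of named core motors and for members on the study's list of decay targets; of each other list, up to 3 called genes in each direction are named; Actr1b was the third decrease among dynein regulators. Same-numbered libraries did not deviate together (correlations of -0.0289, 0.0323 and -0.0147), so no pairing was used. On simulated data, 100% of 200 genes changed by 1 log2 unit were called, as were 0.0482% of the unchanged genes among 16812 run. The changed genes were drawn from well-counted genes, and every simulated gene was given the same dispersion. These rates do not carry over to smaller changes, to scarcer genes or to data with 42.6% of genes called. Alternatives were DESeq2 1.42.0, other scalings and filters, a replicate block, a minimum fold change of 1.2 and each library left out. Other class members were tried for transport kinesins and dynein 1 only. Isoforms and Kif25 were not analysed here.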

Additional observations from a re-analysis of the deposited data

How the results depend on the processing

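Of 821 motor gene values recomputed over 14 settings, 760 kept direction and side of the threshold, 36 lost the call, 14 gained it and 11 changed sign. The call of each mitotic kinesin held in every setting, and the class median stayed between 0.671 and 0.728 with any library left out. With a minimum fold change of 1.2, 1340 of all genes and 5 motors were lower and 883 of all genes were higher, fewer because small changes cannot pass. The transport median was -0.118 with library totals alone and -0.186 with the light chains, Kif17, Kif21a and Kif21b added, and -0.168 to -0.123 with a library left out. The dynein 1 median was -0.0683 with library totals alone, -0.149 without the Dynlt1 copies and -0.126 to -0.0872 with a library left out. Library totals alone, which leave out the TMM factors, moved the split of all genes to 3212 lower and 4207 higher, and that of the motors to 18 and 23. Log2 fold changes moved upward in that setting, for example from -0.272 to -0.244 for Kif1a and from 0.801 to 0.829 for Kif14. Only the scaling was changed in that setting. The median log2 fold change of all genes was at most 0.0338 in any setting. The replicate block gave 3694 lower and 3488 higher genes, and 20 motors in each direction, since Kif13a lost its call (adjusted p = 0.0512 by edgeR); it changed no other motor's call.

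Sign changes were limited to values near 0 that were not called: Kif1c at 0.0148 and Kif26a at 0.00303 with library totals alone, and, with single libraries left out, Kif1c from -0.0327 to 0.0016, Kif26a from -0.082 to 0.00488, Dynlt1b from -0.264 to 0.0397, Kif5b from -0.0103 to 0.0543, and Dynlt1c from -0.0633 to 0.374. The cause was not tested. Kif13a lost its call without WT replicate 1 (adjusted p = 0.151 by edgeR), without WT replicate 3 (0.17) or without Fmr1-KO replicate 3 (0.254), and Kif6 lost it without WT replicate 2 or 3 or Fmr1-KO replicate 2 or 3, at adjusted p of 0.0577 to 0.144 by edgeR. Calls were gained by Dync1li2 without WT replicate 2 (adjusted p = 0.0329 by edgeR) or Fmr1-KO replicate 2 (0.0197), by Kif7 without WT replicate 2 (0.0485), by Dynlt1f without WT replicate 1 (0.0338), and by Dynlrb1 (0.0328) and Dynlt1-ps1 (0.039) without Fmr1-KO replicate 1. With 3 libraries a genotype, genes of few counts such as Klc3 and Kif17 had wide errors, and changes of their size were not detectable at this depth.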
